A study of Mus musculus with 7 samples.

Results

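The myeloid identity transcription factors described here are 9 genes, Spi1, Irf8, Cebpa, Runx1, Maf, Id2, Myc, Klf2 and Klf4, taken by symbol from the 55417 rows of a count table. They were chosen by name as factors that set macrophage identity, growth and quiescence, with their CPM in these 7 libraries (the count scaled to library size, below) already known. Their differences between groups are therefore given as a description: where the text counts how many lay past a threshold, this only sets them beside all genes and supports nothing. All 9 passed the filter on low counts, as did 13329 genes in all. RNA was sequenced from RAW264.7 cells, an established mouse macrophage-like line that came from a tumour induced with Abelson leukaemia virus. Every group carried a short hairpin: shDpep2.968 (n = 2) and shDpep2.759 (n = 2) target Dpep2, which encodes a membrane-bound dipeptidase that cleaves leukotriene D4, and shNT (n = 3) is the control hairpin. Whether each line was a pool or a clone, how long the hairpins had acted and whether replicates were separate cultures is not stated in the labels. The p-values therefore reflect the spread among these samples alone, and that spread may be technical.

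PU.1, the ETS factor encoded by Spi1, is the master regulator of the myeloid lineage, and it opens enhancers together with C/EBP alpha (Cebpa), RUNX1 and IRF8. These 4 factors set up the progenitor and monocyte programme, and MAF then holds mature macrophages out of the cell cycle by repressing self-renewal genes such as Myc and Klf4. ID2 has a helix-loop-helix but no DNA-binding region and so removes E proteins from DNA. MYC drives growth and ribosome production, whereas the zinc-finger factors KLF2 and KLF4 are known for quiescence and for KLF2's restraint of inflammatory genes in myeloid cells.

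Total counts per library ran from 16548648 to 18401060. Dpep2 stood at 55.6, 60.3 and 52.1 CPM with shNT (library sizes scaled by the trimmed mean of M-values). The shDpep2.968 libraries had 22.4 and 17.9 CPM and the shDpep2.759 libraries 24.9 and 19.5 CPM, so that each Dpep2 hairpin library lay below each control. In a quasi-likelihood fit across all genes with edgeR, a gene was called where its Benjamini-Hochberg adjusted p was under 0.05. This called 1012 genes between both hairpins averaged and shNT, and 356 without shNT replicate 2, 321 without shNT replicate 3 and 492 without shDpep2.968 replicate 2. Macrophage markers marked the line: 11 of 12 exceeded 1 CPM on average, with Lyz2 at 9196 and Csf1r at 1138 CPM in shNT, whereas Mertk had 0 to 6 counts. These are bulk libraries, in which fewer cells of a type and less RNA per cell cannot be told apart.

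The 9 genes fell into a set that was higher with both hairpins (Maf, Id2 and Myc), a set that was lower with both (Klf2 and Klf4) and the 4 lineage factors, whose hairpin and control libraries overlapped. For 5 of 9, all 4 Dpep2 hairpin libraries lay on one side of all 3 shNT libraries (18.5% of all tested genes), 3 above (9.03%) and 2 below (9.51%). The same 5 were called, 3 higher (3.44% of tested genes) and 2 lower (4.15%), 7.59% of tested genes being called in either direction. Since these values were known when the genes were chosen, nothing is read from the counts. The median log2 fold change of the 9 was 0.04, beside 0.00 (0.0025) over all genes tested.

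**Figure D1:**
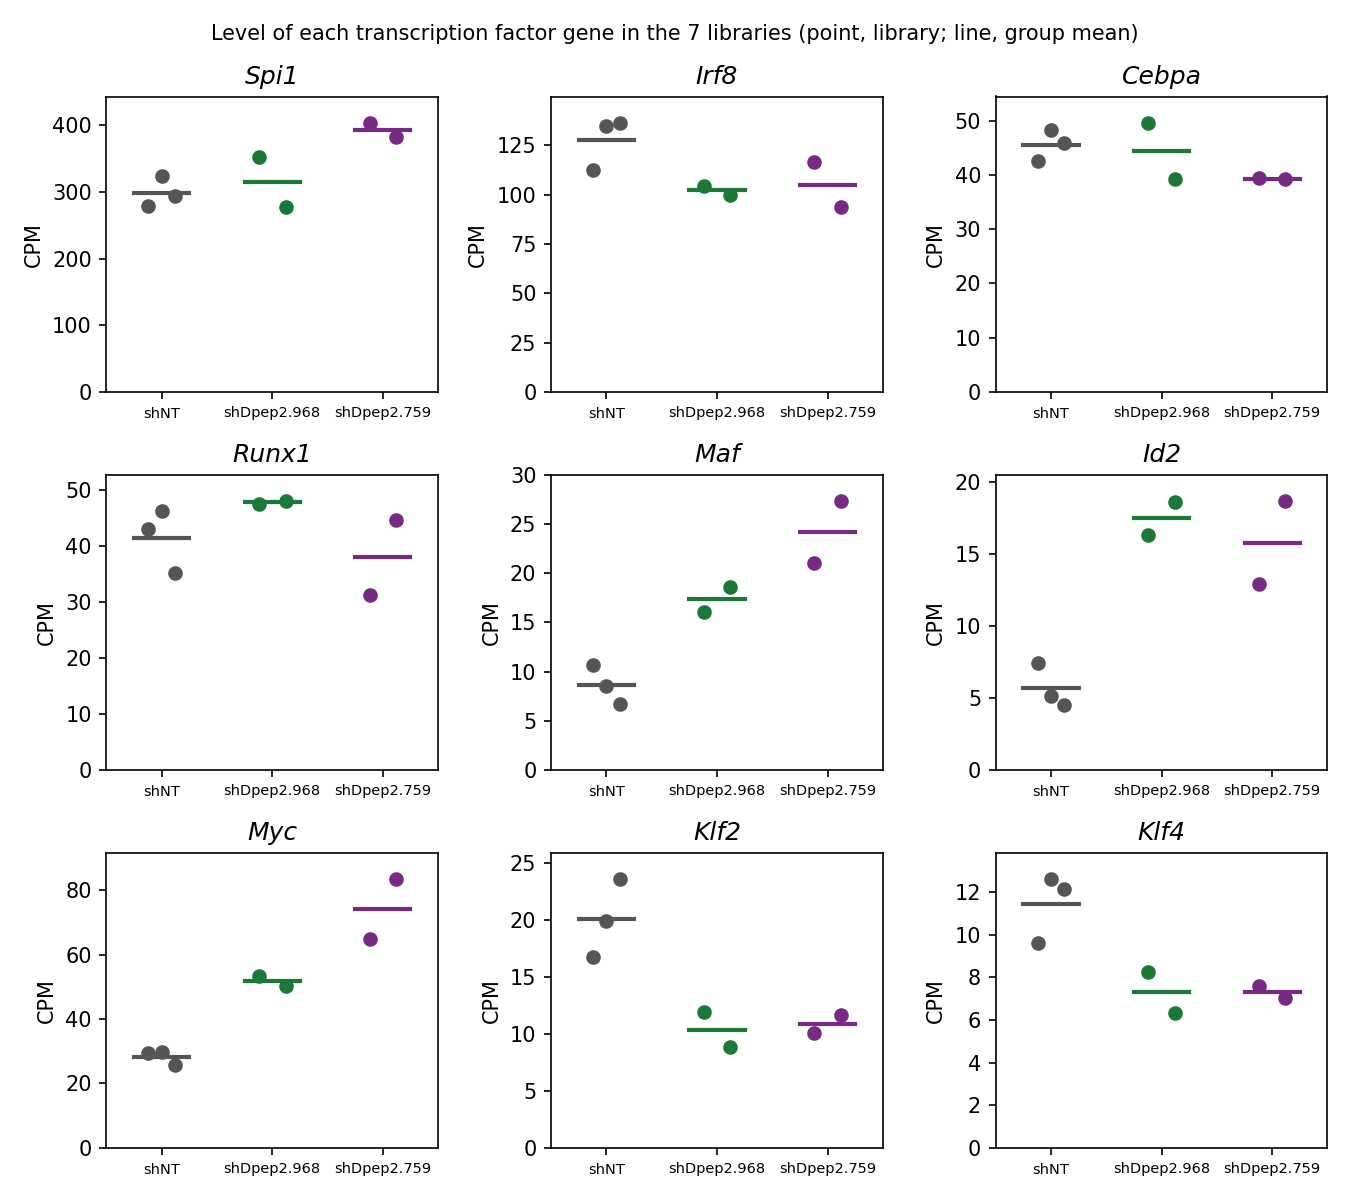
Level of the 9 transcription factor genes in CPM (vertical axes, each from 0) in every library (points), by hairpin group, with group means as lines. For Maf, Id2 and Myc all 4 Dpep2 hairpin libraries sit above the controls and for Klf2 and Klf4 below them, while the 4 lineage factors overlap.

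The windows of 250 bases before the transcription start of 3 of the 5 genes without overlap are shown because they place opposite movers side by side, Klf2 and Klf4 being lower and Id2 higher. They come from RefSeq on GRCm38.p6, whose promoter table matched 6 of the 9 genes by symbol (not Spi1, Maf or Myc). Capitals mark the GC box (GGGCGG), the CCAAT box (CCAAT) and the MEF2 site, each searched on both strands; the Klf2 window lies at chr8:72318812-72319061 on the plus strand, that of Klf4 at chr4:55532476-55532725 and that of Id2 at chr12:25096093-25096342, both on the minus strand.
Klf2: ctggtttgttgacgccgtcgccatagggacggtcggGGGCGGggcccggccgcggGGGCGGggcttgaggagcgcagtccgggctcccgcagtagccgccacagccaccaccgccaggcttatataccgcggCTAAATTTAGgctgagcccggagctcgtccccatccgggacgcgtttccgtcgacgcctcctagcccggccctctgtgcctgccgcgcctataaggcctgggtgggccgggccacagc
Klf4: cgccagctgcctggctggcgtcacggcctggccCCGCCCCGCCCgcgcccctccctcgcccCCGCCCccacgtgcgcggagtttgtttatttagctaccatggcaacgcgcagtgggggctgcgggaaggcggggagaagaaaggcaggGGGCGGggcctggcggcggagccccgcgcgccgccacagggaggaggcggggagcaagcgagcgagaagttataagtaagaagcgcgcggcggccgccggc
Id2: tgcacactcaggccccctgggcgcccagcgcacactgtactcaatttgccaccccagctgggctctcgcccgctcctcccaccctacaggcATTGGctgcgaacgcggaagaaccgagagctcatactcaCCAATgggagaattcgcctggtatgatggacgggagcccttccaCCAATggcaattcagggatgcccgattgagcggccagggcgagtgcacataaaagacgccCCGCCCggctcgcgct
The Klf2 window held 2 GC boxes and 1 MEF2 site, whose first base lies at -118 from the start. The Klf4 window held 4 GC boxes, the pair at -217 and -212 overlapping by 1 base, and no MEF2 match. Id2 had 1 GC box, at -16, and 3 CCAAT boxes, at -159, -120 and -76. Among 32851 RefSeq windows of the same length 32.7% held a GC box, 33.8% a CCAAT box and 2.92% a MEF2 site. The GC content was 71.2% for Klf2, 74.0% for Klf4 and 62.8% for Id2, against a median of 52.4% over all windows. MEF2 factors are known activators of Klf2; a match is a description of the letters and not a bound site.

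Spi1 was the most abundant of the 9 genes. The controls had 279, 323 and 293 CPM, the shDpep2.968 libraries 353 and 277 CPM and the shDpep2.759 libraries 403 and 383 CPM. Both shDpep2.759 libraries lay above all controls, but those of shDpep2.968 straddled them. The averaged log2 fold change was 0.24 (SE 0.11), made up of 0.08 (SE 0.14) with shDpep2.968 and 0.40 (SE 0.14) with shDpep2.759.

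Irf8 encodes the interferon regulatory factor that pairs with PU.1 and directs progenitors to monocytes. Its levels were 113, 135 and 136 CPM with shNT, 104 and 100.05 CPM with shDpep2.968 and 116 and 93.7 CPM with shDpep2.759. Only the first shDpep2.759 library exceeded the lowest control, shNT replicate 1. The averaged log2 fold change was -0.30 (SE 0.11), close to the values for shDpep2.968 (-0.32) and shDpep2.759 (-0.28) alone.

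Cebpa, which drives the step from multipotent progenitor to granulocyte-monocyte progenitor, ranged from 42.6 to 48.2 CPM with shNT, had 49.5 and 39.2 CPM in the shDpep2.968 libraries and was at 39.3 CPM in both shDpep2.759 libraries, which lay below all controls. Its averaged log2 fold change was -0.13 (SE 0.11), and it was 0.08 after a correction for GC content and length, so that no direction can be given. Runx1, the core-binding factor needed for the birth of blood stem cells, was at 43.1, 46.4 and 35.1 CPM with shNT, 47.6 and 48.0 CPM with shDpep2.968 and 31.3 and 44.8 CPM with shDpep2.759. The log2 fold change was 0.04 (SE 0.14) on average, positive with shDpep2.968 (0.20, SE 0.17) and negative with shDpep2.759 (-0.13, SE 0.17). Across genes the averaged log2 fold change had a Spearman correlation of -0.25 with transcript GC content (genes are not independent replicates). With the GC and length correction the Spi1 log2 fold change became 0.38 and that of Irf8 -0.28, and the genes called over the whole table numbered 2182 against 1012. The part of GC content in these values was not tested further.

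Maf encodes the large MAF factor of mature macrophages. The controls had 10.6, 8.49 and 6.65 CPM, the shDpep2.968 libraries 16.1 and 18.6 CPM and the shDpep2.759 libraries 20.98 and 27.3 CPM. The groups did not overlap, and the lowest hairpin library was 1.51 times the highest control. Maf was 2.38-fold higher on average (log2 fold change 1.25, SE 0.17), 2.02-fold with shDpep2.968 and 2.81-fold with shDpep2.759. The group means were 8.59 ± 1.99 CPM (SD, n = 3), 17.3 ± 1.8 CPM (n = 2) and 24.1 ± 4.5 CPM (n = 2).

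Id2 had the largest log2 difference of the 9 genes, averaging both hairpins. The controls had 7.43, 5.15 and 4.47 CPM, beside 16.3 and 18.6 CPM for shDpep2.968 and 12.9 and 18.6 CPM for shDpep2.759. All 4 hairpin libraries were above all controls, by at least 1.74 times. The averaged fold was 2.92 (log2 fold change 1.55, SE 0.19), with 3.08 for shDpep2.968 and 2.78 for shDpep2.759.

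Myc was higher as well. From 29.4, 29.9 and 25.6 CPM in the controls it went to 53.3 and 50.2 CPM in the shDpep2.968 libraries and to 64.9 and 83.4 CPM in those of shDpep2.759. Its controls were the tightest of the 5 non-overlapping genes, with a coefficient of variation of 8.18% against 14.1% to 27.3% for the other 4. The averaged fold was 2.19 (log2 fold change 1.13, SE 0.12), with 1.83 for shDpep2.968 and 2.62 for shDpep2.759.

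Klf2 was lower. The controls had 16.8, 19.9 and 23.6 CPM, the shDpep2.968 libraries 11.9 and 8.87 CPM and those of shDpep2.759 10.1 and 11.7 CPM. No hairpin library reached a control, and the highest was 0.709 times the lowest control. The averaged log2 fold change was -0.92 (SE 0.15), which leaves 52.9% of the control level, with -0.95 for shDpep2.968 alone and -0.88 for shDpep2.759 alone.

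Klf4, the relative of Klf2 that is also a pluripotency factor and is needed for monocyte formation, was lower to a smaller extent. Levels were 9.61, 12.6 and 12.1 CPM with shNT, 8.27 and 6.34 CPM with shDpep2.968 and 7.57 and 7.03 CPM with shDpep2.759. The groups did not overlap, but the highest hairpin library was 0.861 times shNT replicate 1. The log2 fold change was -0.65 for each hairpin and for their average (SE 0.16 for the average), or 63.8% of the control. In the main fit Klf4 was past the threshold for the average but for neither hairpin alone. Klf4 was no longer among the 5 genes past the threshold when shDpep2.968 replicate 2 was omitted (log2 fold change -0.56), and likewise for shNT replicate 2 (-0.59) or shNT replicate 3 (-0.61).

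**Figure D2:**
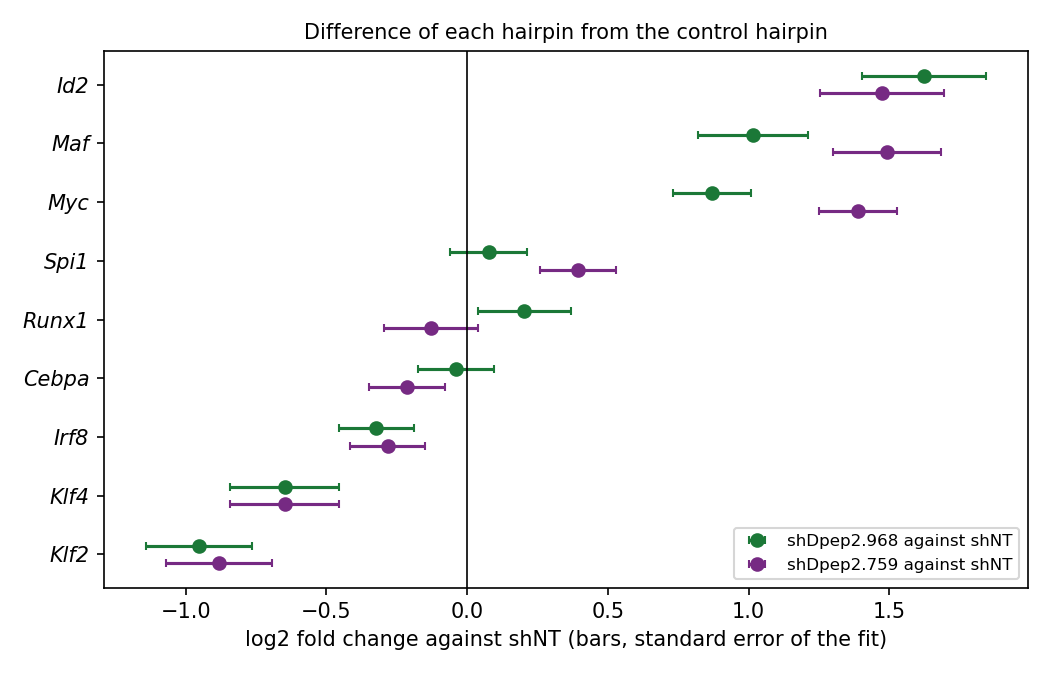
Log2 fold change against shNT (horizontal axis) of each gene with shDpep2.968 (green) and shDpep2.759 (purple), bars giving the standard error of the fit. Id2, Maf and Myc lie to the right of 0 with both hairpins, Klf2 and Klf4 to the left, and Runx1 lies at 0.20 with one hairpin and -0.13 with the other.

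The hairpins were also set beside each other, again as a description, since the levels in these libraries were known when the genes were chosen. None of the 9 was past the edgeR threshold in this contrast (0.84% of tested genes were), nor with DESeq2 or limma-voom. Myc passed it in 1 of 18 alternatives, edgeR with no low-count filter. Maf and Myc, 2 of the 9, had an unadjusted p under 0.05 in the main fit. Nothing is read from these counts. Myc was lower with shDpep2.968 than with shDpep2.759 by a log2 difference of -0.52 (95% interval -0.85 to -0.19), in both libraries of each. For Maf the difference was -0.48 (95% interval -0.93 to -0.03). The libraries of the 2 hairpins did not overlap for 4 of 9 genes (Spi1, Maf, Runx1 and Myc), against 42.9% of all tested genes. For Klf4 the difference was 0.00 (-0.0004) with a 95% interval of -0.46 to 0.46, for Klf2 -0.07 (-0.52 to 0.38) and for Id2 0.15 (-0.36 to 0.65). These intervals bound the difference and do not show that the hairpins acted alike.

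Levels of different genes were compared per length, as CPM per kilobase of the longest GENCODE M21 transcript, which is an approximation where another isoform is used. In shNT, Spi1 led with 147 CPM per kilobase, followed by Irf8 (36.8), Cebpa (17.4), Myc (12.1), Klf2 (10.9), Runx1 (7.09), Klf4 (3.78), Id2 (2.89) and Maf (1.35). The control libraries of Myc and Klf2 overlapped, as did those of Klf4 and Id2, and all other neighbours in the order were separate. Under the hairpins the order of the means changed: Id2 had rank 5 at 8.86 CPM per kilobase with shDpep2.968 and 8.01 with shDpep2.759, ahead of Runx1 and Klf2, and Klf4 was the lowest of the 9 at 2.41 with each. Myc went from rank 4 to rank 3 with shDpep2.968 (22.1 CPM per kilobase) and rank 2 with shDpep2.759 (31.7), passing Cebpa in both and Irf8 (29.5 and 30.3) in the latter. These are ranks of means. With shDpep2.759 the single libraries of Myc and Irf8 overlapped, as did those of Id2 and Runx1. With shDpep2.968 those of Klf4 and Maf overlapped.

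**Figure D3:**
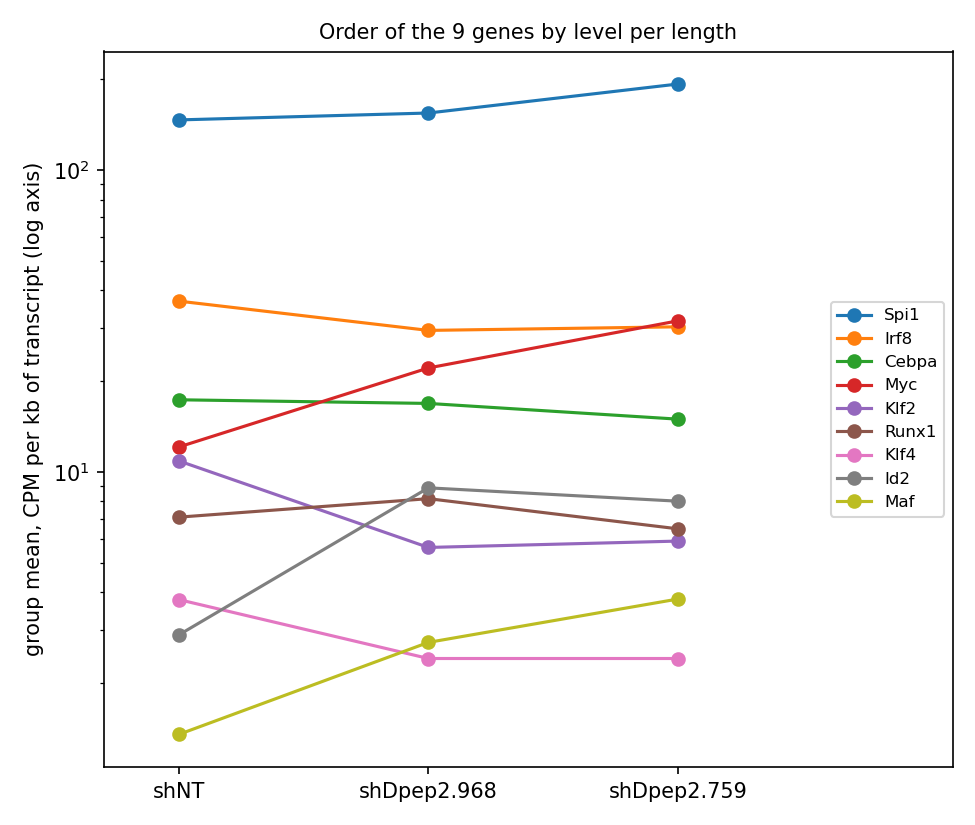
Group mean level of the 9 genes in CPM per kilobase of transcript (vertical axis, log scale) for the 3 hairpin groups (horizontal axis), 1 line per gene. Spi1 stays on top, the lines of Myc and Cebpa cross, and Klf4 goes from seventh in shNT to ninth.

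The 2 tested genes whose log2(CPM + 1) was most like each factor over the 7 libraries were sought among 8661 genes of at least 10 CPM. For Maf they were Tor1aip1 and Cd180 (Pearson r 0.99 for both), for Id2 Actg1 (1.00, 0.9963) and C3ar1 (0.99), and for Myc Hivep2 and Mllt6 (0.99 for both). Klf2 was most like Synj2 and Aacs (0.99 for both) and Klf4 most like Ptp4a3 and Mfsd13a (0.99 for both). Cd180, a Toll-like receptor relative on myeloid cells and B cells, had 68.9, 55.3 and 47.8 CPM with shNT, 81.5 and 87.0 CPM with shDpep2.968 and 92.3 and 106 CPM with shDpep2.759. Aacs, which makes acetoacetyl-CoA for lipid synthesis, had 41.9, 50.6 and 52.1 CPM with shNT and 32.5 to 37.0 CPM with the Dpep2 hairpins. The nearest genes were Plod1 and Fes for Spi1 (0.99 and 0.98), Arhgap9 and Gstp1 for Irf8 (0.99 for both), Rhobtb2 and Pak4 for Cebpa (0.96 for both) and Alg8 and Rbm47 for Runx1 (0.97 for both). Each r was picked as the highest of 8661 over 7 libraries that share 3 groups, and says nothing of shared function.

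Relatives and partners of the 9 factors were taken from 9 lists of 118 factors, 95 of them tested. Of these, 6 rose and 2 fell in the averaged comparison, 8.42% beside 7.59% of all tested genes, with a median log2 fold change of 0.01. The lists were drawn up with earlier results of these data known. Their shares and the p-values of their genes are therefore a description, and nothing is read from the shares. Among ID and E proteins 1 of 9 tested genes rose and none fell: Id3, the relative of Id2, went from 27.7, 29.0 and 31.9 CPM with shNT to 40.9 and 38.0 CPM with shDpep2.968 and 60.1 and 55.0 CPM with shDpep2.759 (1.61-fold, edgeR adjusted p = 0.00238). In the MYC network 1 of 11 rose and none fell: Mxd1, which competes with MYC for its partner MAX, rose 1.67-fold (edgeR adjusted p = 0.00357). Its levels were 42.4, 35.0 and 40.2 CPM with shNT, 41.3 and 54.7 CPM with shDpep2.968 and 95.4 and 83.8 CPM with shDpep2.759, so the shDpep2.968 libraries overlapped the controls. Mycn, the relative of Myc named after its values were seen, was far more abundant, with a shNT mean of 651 CPM beside 28.3 for Myc. Mycn averaged 549.6 CPM with shDpep2.968 and 491 CPM with shDpep2.759. Its log2 fold change was -0.32, it was not called, and its hairpin and control libraries overlapped.

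Of 8 tested MAF, BACH and NFE2 factors none passed in the averaged comparison. With shDpep2.968 alone 1 was called lower (2.96% of tested genes were), and none with shDpep2.759 alone. The 2 most abundant, Nfe2l1 and Mafg, had log2 fold changes of -0.30 and -0.05. None of 12 KLF and SP factors passed in the average either, while 1 was called higher with shDpep2.968 alone (2.29% of tested genes were). Klf6, the most abundant, had 169 to 202 CPM with shNT, 156 and 179 CPM with shDpep2.968 and 223 and 227 CPM with shDpep2.759, and Sp1 had a log2 fold change of -0.02. Neither did any of 6 C/EBP factors, where Cebpb and Cebpd had log2 fold changes of -0.05 and -0.04, or of 4 RUNX factors and cofactors. Cbfb, the partner subunit of RUNX1, had 106 to 124 CPM with shNT, 156 and 179.8 CPM with shDpep2.968 and 84.8 and 121 CPM with shDpep2.759, and Cbfa2t2 had a log2 fold change of -0.14. For these 4 lists the count of 0 came from edgeR, with an unadjusted p under 0.05 for 3 MAF, BACH and NFE2, 2 KLF and SP, 2 C/EBP and 1 RUNX list genes. By DESeq2 1 C/EBP factor passed and no gene of the other 3, and by limma-voom none of the 4 lists held a call.

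Among 9 interferon regulatory and BATF factors 1 rose and none fell. Batf2, an interferon-induced factor, rose 1.83-fold (edgeR adjusted p = 0.0117) from 4.74 CPM with shNT, and lost its call without shNT replicate 3. Of 11 ETS factors Elf2 rose 1.30-fold (edgeR adjusted p = 0.0461), and its call was lost without either shDpep2.968 library, shDpep2.759 replicate 2 or any shNT library. Of 25 other myeloid fate factors 2 rose and 2 fell. The sterol receptor gene Nr1h3 rose 2.32-fold and Prdm1, a repressor of lymphoid and myeloid genes, 2.18-fold from 0.856 CPM. Nfil3, a basic leucine zipper factor of innate lymphoid and dendritic cell development, had a log2 fold change of -0.55 and Tfeb, the lysosome and autophagy regulator, of -0.60 (edgeR adjusted p = 0.0101 and 0.0195). Prdm1 lost its call without any 1 of 6 libraries, all but shDpep2.968 replicate 1, and with DESeq2 (adjusted p = 0.0792) and limma-voom (adjusted p = 0.0561), and Nfil3 and Tfeb lost theirs without shNT replicate 2 or 3, Tfeb also without shDpep2.968 replicate 1 and with the GC and length correction.

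**Figure D4:**
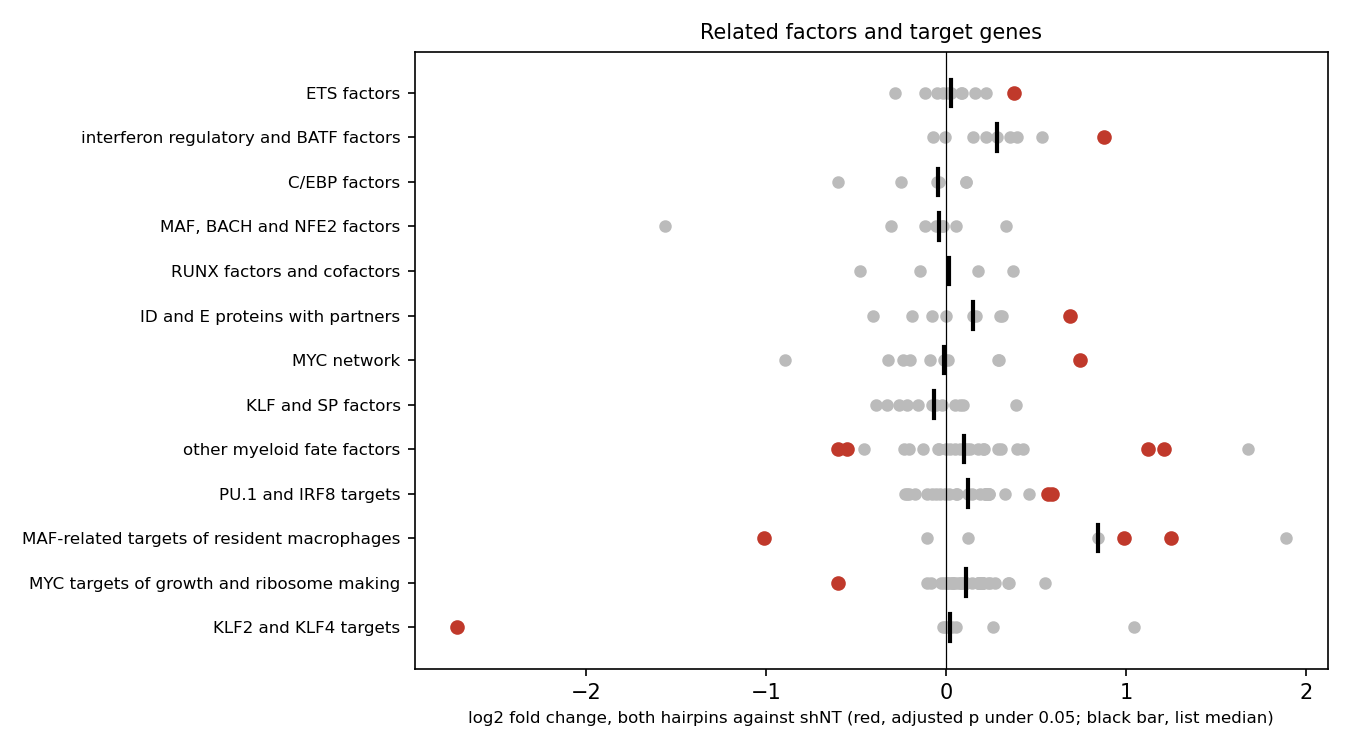
Log2 fold change of each tested gene (points) in the 13 lists of related factors and target genes, both hairpins against shNT, with genes past the threshold in red and list medians as black bars. Most points lie near 0, and 15 of the 168 genes tested are red.

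Known targets of the factors came from 4 lists of 81 genes, of which 73 were tested: 4 rose and 3 fell, 9.59% beside 7.59% of all tested genes. Earlier results were known for these lists too, so their shares and p-values are likewise a description. Of 33 growth and ribosome genes that MYC is known to activate, none rose and 1 fell when both hairpins were averaged, with a list median of 0.11, while DESeq2 called 1 higher and 1 lower. With shDpep2.968 alone 2 rose and none fell (median 0.22), and with shDpep2.759 alone none rose and 1 fell (median 0.05). Of all tested genes, shDpep2.968 gave calls for 5.25%, of which 2.29% were up and 2.96% down as shares of all. The shares for shDpep2.759 were 4.73%, 2.72% up and 2% down. The 2, named after their values were seen, were the small nucleolar ribonucleoprotein genes Nop58 and Dkc1 (log2 fold changes 0.56 and 0.56, edgeR adjusted p = 0.0343 and 0.0385), both calls being lost with limma-voom and when the second shDpep2.968 library or either shNT replicate 2 or 3 was omitted. Between the hairpins 1 gene of the list differed, the cyclin gene Ccnd2. The gene that fell in the average was Odc1, the polyamine enzyme (log2 fold change -0.60, edgeR adjusted p = 0.00775). It went from 5390, 5115 and 5965 CPM with shNT to 4100.4 and 4530.3 CPM with shDpep2.968 and 3365 and 2741 CPM with shDpep2.759. Its call was lost without shNT replicate 3 and with a replicate block in the fit. Every Odc1 hairpin library thus lay below every control while those of Myc lay above. Of 7 tested MAF-related targets of resident macrophages 2 rose and 1 fell, with a list median of 0.85. Il10, the anti-inflammatory cytokine gene that MAF activates, rose 1.98-fold (edgeR adjusted p = 0.000967), from 24.0, 18.9 and 17.4 CPM with shNT to 41.5 and 43.2 CPM with shDpep2.968 and 40.3 and 34.7 CPM with shDpep2.759. The mannose receptor gene Mrc1 rose 2.38-fold from 0.645 CPM, a call lost when any 1 of 6 libraries was left out, all but shDpep2.759 replicate 2, and with DESeq2 (adjusted p = 0.0773). Cd5l, a secreted scavenger protein gene, fell by 1.01 on the log2 scale (edgeR adjusted p = 0.00291), from 17.1 to 18.03 CPM with shNT to 6.48 and 5.93 CPM with shDpep2.968 and 15.4 and 9.20 CPM with shDpep2.759.

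Of 25 tested PU.1 and IRF8 targets 2 rose and none fell, with a list median of 0.12. With shDpep2.968 alone none rose and 1 fell (median 0.02), with shDpep2.759 alone 3 rose and none fell (median 0.21), and 3 differed between the hairpins (Adgre1, Csf3r and Csf2rb). The gene that fell with shDpep2.968 was Csf3r, the granulocyte colony-stimulating factor receptor (log2 fold change -0.83, edgeR adjusted p = 0.0382, lost without either shDpep2.968 library or shNT replicate 2 or 3 and with limma-voom), and those that rose with shDpep2.759 were Adgre1, Fcgr1 and Fcer1g, the Fc receptor gamma chain (0.72, edgeR adjusted p = 0.0217, lost without shDpep2.759 replicate 1 or shNT replicate 2 or 3). Csf3r and Fcer1g were named after their values were seen. In the average, Adgre1, which encodes the macrophage surface protein F4/80, rose 1.48-fold, and Fcgr1, the high-affinity Fc receptor, rose 1.51-fold (edgeR adjusted p = 0.00397 and 0.0161). Fcgr1 was no longer called when either shNT replicate 2 or 3 or the second shDpep2.968 library was omitted. With a replicate block in the fit neither Adgre1 nor Fcgr1 was called. Of 8 tested KLF2 and KLF4 targets none rose and 1 fell, with a list median of 0.02. Nos3, the endothelial nitric oxide synthase, had 7, 11 and 16 counts with shNT, 1 in each shDpep2.968 library, and 3 and 2 with shDpep2.759 (edgeR adjusted p = 0.0128, lost without shDpep2.968 replicate 2). The summed counts, 7 with the Dpep2 hairpins and 34 with shNT, gave a ratio of levels of 0.156 with a 95% interval of 0.0584 to 0.358 (exact binomial, counting error only).

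Markers of other cell types moved with the hairpins in part, and their part in the results above was not tested. The summed osteoclast markers were 139.98 to 160.5 CPM with shNT, 262 to 269 CPM with shDpep2.968 and 273 to 299.9 CPM with shDpep2.759, with 4 of 7 tested genes called higher in the average and Calcr at 0 in all libraries. With shDpep2.968 alone 4 were called higher and with shDpep2.759 alone 3, and 1 differed between the hairpins. Acp5 averaged 25.8 CPM with shNT, 84.2 CPM with shDpep2.968 and 118.6 CPM with shDpep2.759. Ocstamp averaged 5.32 CPM with shNT, 16.97 CPM with shDpep2.968 and 5.36 CPM with shDpep2.759. Ctsk, Dcstamp and Nfatc1 were not called in the average. The summed granulocyte markers were 17.7 to 34.0 CPM with shNT, 34.4 to 50.3 CPM with shDpep2.968 and 100.2 to 237 CPM with shDpep2.759. Nearly all of this was S100a8, which did not pass the test (edgeR adjusted p = 0.0899), and Ctsg, Ly6g, Ltf and Retnlg were at 0. The 12 macrophage markers summed to 15525 to 17244 CPM with shNT, 16381 to 16674 CPM with shDpep2.968 and 18481 to 22315 CPM with shDpep2.759. Adgre1, Fcgr1 and Mpeg1 were called higher in the average among 11 tested. With shDpep2.968 alone none of the 11 was called, with shDpep2.759 alone 3 were called higher, and 1 differed between the hairpins. Summed dendritic cell markers were 3.56 to 4.83 CPM with shNT and 6.56 to 9.54 CPM with the Dpep2 hairpins (1 of 4 called higher, Cd209a at 0). Fibroblast markers were 0.786 to 1.86 CPM against 2.20 to 3.69 CPM (1 of 2 called higher in the average, Col1a2 at 0). This sum rose through Dcn (0.546, 0.923 and 2.20 CPM in shNT, shDpep2.968 and shDpep2.759) and Lum (0.374, 1.01 and 1.23 CPM). Col1a1, Col3a1 and Pdgfrb did not rise, each at 10 counts or fewer per library. With shDpep2.968 alone no fibroblast marker was called. The dendritic cell markers moved differently with each hairpin. In shNT, shDpep2.968 and shDpep2.759, Itgax averaged 2.10, 7.96 and 3.43 CPM and Ccr7 0.537, 0.491 and 3.18 CPM. Zbtb46 averaged 0.885, 0.317 and 0.716 CPM in the same order, at 1 to 19 counts per library. It was not called in the average, and its hairpin and control libraries overlapped. B cell markers were 14.6 to 19.6 CPM against 9.08 to 12.3 CPM (1 of 2 called lower). T cell markers were 4.11 to 4.99 CPM against 4.77 to 6.94 CPM, erythroid and megakaryocyte markers 2.24 to 2.96 CPM against 2.13 to 3.41 CPM, and epithelial markers at most 0.173 CPM, with no tested gene called. Cd3e, Cd3g, Gata1, Hbb-bs, Epcam, Krt5 and Krt18 were at 0 in all libraries.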

How the data were processed

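Libraries from RAW264.7 RNA were prepared with a TruSeq stranded kit for total RNA and sequenced from both ends, 150 bases each, per the labels' protocols. The authors deposited whole-number counts per gene symbol. Trim Galore and Salmon are named in the submitters' processing notes, which give hg38, a human build, although the symbols are mouse. The annotation, the strand setting and any rounding of estimates were not given in the sources used here, so no gene coordinates are given from the counts. Groups follow the hairpin in the labels.

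The analysis used edgeR 4.0.16 in R 4.3.3, with filterByExpr, trimmed mean of M-values scaling, 1 mean per group over all 7 libraries (4 residual degrees of freedom), robust quasi-likelihood tests and Benjamini-Hochberg adjustment over all 13329 tested genes, with a threshold of 0.05. DESeq2 1.42.0, limma 3.58.1 (voom), other size factors and filters, a replicate block, a GC and length correction and the omission of each library were alternatives. Total counts per library set the counting precision, and edgeR's common dispersion gave a biological coefficient of variation of 13.8%.

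The 9 genes and the gene lists were chosen with earlier results of these data known. Calls and p-values of list genes, markers included, are thus a description. Named genes were the 9, up to 4 called genes per list of factors or targets (or the 2 most abundant where none was called), and the 2 most alike genes per factor. The PU.1 and IRF8 target list shares 9 genes with the macrophage markers. Within each group the libraries differed beyond counting noise (chi-square over its degrees of freedom, 15.5 to 44.9), which does not show that they came from separate cultures. Each was counted as its own sample, as labelled. The antisense genes overlapping exons of Cebpa, Maf and Runx1 had at most 7 counts. Some genes of the lists are not reported here.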

Additional observations from a re-analysis of the deposited data

Results flagged for a closer look

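For 5 genes named beside the 9 factors the adjusted p of the difference between the hairpins was under 0.05 (edgeR quasi-likelihood, shDpep2.968 minus shDpep2.759). The genes were flagged here by these same values, so the p-values describe the pick and are no separate support. For Mxd1, a MAX partner, the log2 difference was -0.90 (SE 0.16, adjusted p = 0.0248), with log2 fold changes against shNT of 0.29 and 1.19. For Adgre1, which encodes F4/80, it was -0.79 (SE 0.13, adjusted p = 0.0164), with log2 fold changes of 0.17 and 0.96. Adgre1 stood at 141, 128 and 131 CPM with shNT, 145 and 155.0 CPM with shDpep2.968 and 252 and 265 CPM with shDpep2.759, above the controls in 4 of 4 hairpin libraries. For Csf3r, the granulocyte colony-stimulating factor receptor, the log2 difference was -1.21 (SE 0.22, adjusted p = 0.0279), with log2 fold changes of -0.83 and 0.38. For Csf2rb, the shared beta chain of cytokine receptors, it was -0.66 (SE 0.13, adjusted p = 0.0372), with -0.27 and 0.39. For the cyclin gene Ccnd2 it was 0.80 (SE 0.14, adjusted p = 0.0249), with 0.32 and -0.48. The tests of Csf3r, Csf2rb and Ccnd2, named after their values were seen, no longer passed when either shDpep2.968 library, shDpep2.759 replicate 1 or shNT replicate 3 was omitted, nor that of Csf2rb without shNT replicate 2, and limma-voom called neither Csf3r nor Csf2rb. The tests of Mxd1 and Adgre1 between the hairpins were not repeated under the alternatives, so whether they would hold is not known. No group held 4 or more libraries, so single libraries were not screened for outlying values.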

How the results depend on the processing

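Over 17 alternatives the 9 factors gave 153 values for both hairpins against shNT: 138 kept direction and call, 5 lost the call (all Klf4), 3 gained it (Spi1 once, Irf8 in 2) and 7 changed sign without a call (Cebpa and Runx1). These tallies rest on values known when the genes were chosen and support nothing. Over the 17, Maf, Id2, Myc and Klf2 had log2 fold changes of 1.08 to 1.43, 1.32 to 1.78, 1.03 to 1.21 and -1.03 to -0.65. The Irf8 call appeared with the GC and length correction and without shDpep2.759 replicate 1. With a single hairpin, Maf with shDpep2.968 was past the threshold in 15 of 18 alternatives, Klf2 in 15 with shDpep2.968 and 13 with shDpep2.759. For the related factors and targets named by rule, 50 of 388 values lost the call, none gained one and 18 changed sign without a call. Genes called (both hairpins against shNT, shDpep2.968, shDpep2.759, between hairpins) numbered 1012, 700, 630 and 112. They were 1590, 1443, 1131 and 669 with no low-count filter and 2182, 1704, 1678 and 540 with the GC and length correction. Between hairpins the count was 378 with DESeq2, 54 with limma-voom and 63 without robust estimation, and fits of the compared groups only gave 1350 for shDpep2.968 and 61 between hairpins. Leaving out each library gave 321 to 1468, 69 to 1309, 253 to 768 and 6 to 1070, where a group left with 1 library is assumed to vary like the others. The cause was not tested. Deviations from the group mean of same-numbered libraries had r = 0.12 between the hairpin groups and -0.34 to -0.24 with shNT. In a group of 2 the deviations of the libraries mirror each other, so these r values are not independent. They cannot decide whether the numbers pair the samples or whether batches were shared. With the replicate block 404, 308 and 312 genes were called against shNT, and with GC and length correction too 585 (both), 384 (shDpep2.968) and 186 (between hairpins). Klf4 was then not called (log2 fold change -0.61 and -0.51). The replicate block also ended the averaged calls of Elf2, Batf2, Nfil3, Tfeb, Prdm1, Adgre1, Fcgr1, Mrc1, Odc1 and Nos3. Those of Id3, Mxd1, Nr1h3, Il10 and Cd5l held. Nos3, at 1 to 16 counts per library, had a counting interval of 0.0584 to 0.358 on its ratio.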

Other observations

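Among the 5 factors whose hairpin and control libraries did not overlap, shNT replicate 1 was the control nearest to the hairpin libraries for 4, Maf, Id2, Klf2 and Klf4, and shNT replicate 2 for Myc. The share of counts from mitochondrial genes was 3.28%, 2.36% and 1.45% in shNT replicates 1, 2 and 3 and 1.93% to 2.71% in the Dpep2 hairpin libraries. The count of 4 was not set beside all tested genes, and nothing is read from it. Without shNT replicate 1 the log2 fold changes were 1.43 for Maf, 1.78 for Id2, -1.03 for Klf2 and -0.76 for Klf4. Each was farther from 0 than with all libraries, which follows from leaving out the nearest control and is no separate result.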
